A study of Mus musculus with 6 samples.

Results

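P19 is an embryonal carcinoma line from the mouse whose cells resemble those of the early embryo. The 6 RNA-seq libraries made from it fell into 3 and 3 along their main axis of variation, and that division did not follow the treatment. One side, called side A here, holds control 1, PDTLN1 2 and PDTLN1 3. The other, side B, holds control 2, control 3 and PDTLN1 1. The sides were picked from the counts described here, so all 6 libraries of the series are used and none was left out. For that reason every difference between the sides is given as a description with no test, and the spread within a side is smaller than it would be for groups named by a label.

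Control cells were untreated and PDTLN1 cells had received the peptide PDTLN1; the labels give no dose and no duration. All cells were grown in the same serum-containing medium. The labels do not say whether the libraries are from separate cultures, and the spread between them may be technical. Their extraction text names retinas, which does not match the labelled cell line. Whether the libraries numbered 1 were exchanged between the treatments was not tested, and every statement on treatment rests on the labels as they stand.

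The endoplasmic reticulum (ER) folds secreted and membrane proteins. When unfolded proteins accumulate there, the sensors PERK, IRE1 and ATF6 start the unfolded protein response. PERK, and separately the amino acid sensor GCN2, phosphorylate the initiation factor eIF2, which lowers general translation while the mRNA of the transcription factor ATF4 is translated more. ATF4 and its partner CHOP then act on genes of amino acid supply, redox balance and cell death, a program called the integrated stress response. IRE1 splices the mRNA of XBP1, which with ATF6 drives chaperones and the machinery that removes misfolded proteins from the ER.

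Some of the genes that stood far apart between the sides, in either direction, hold matches to stress response elements in their promoters, and a few of those stretches are shown first. The CEBP-ATF response element, to which ATF4 binds, was searched as TGATGNAA on both strands. The ER stress response element II, read by ATF6, was searched as ATTGG and CCACG with 1 base between them, and the ER stress response element as CCAAT and CCACG with 9 bases between them. Windows run 5′ to 3′ along the gene, from RefSeq promoters in build GRCm38.p6, and capitals mark the match; positions are counted from the start site. Chac1 has its match at -193 on the opposite strand (chr2:119351023-119351082, plus strand gene), Atf3 at -110 on the opposite strand (chr1:191183410-191183469, minus strand gene), and Pck2 at -103 on the opposite strand (chr14:55540137-55540196, plus strand gene). Herpud1 has a CEBP-ATF match at -112 on the opposite strand (chr8:94386291-94386350) and an element II match at -52 on its own strand (chr8:94386351-94386413, plus strand gene). Derl3 has an ER stress response element at -156 on the opposite strand (chr10:75893216-75893286, plus strand gene). These 5 genes were higher on side B. Ppp1r10, a leading gene higher on side A, also has a CEBP-ATF match, at -134 on its own strand (chr17:35919112-35919171, plus strand gene).
Chac1: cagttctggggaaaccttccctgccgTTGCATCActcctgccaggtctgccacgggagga
Atf3: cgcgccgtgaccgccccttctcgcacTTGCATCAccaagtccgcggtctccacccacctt
Pck2: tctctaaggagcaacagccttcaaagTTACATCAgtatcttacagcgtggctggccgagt
Herpud1, CEBP-ATF element: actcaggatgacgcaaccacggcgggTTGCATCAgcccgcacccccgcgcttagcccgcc
Herpud1, element II: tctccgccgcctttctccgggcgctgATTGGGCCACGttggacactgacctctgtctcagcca
Derl3: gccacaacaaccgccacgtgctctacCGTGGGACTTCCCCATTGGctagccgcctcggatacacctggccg
Ppp1r10: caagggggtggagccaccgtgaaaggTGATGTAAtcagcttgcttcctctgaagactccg

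A match is a description of the letters in these windows and not a binding site or a cause. The ER stress response element was also found in Hnrnpa3 at -242, a leading gene higher on side A, and in Zfp57 at -33, one higher on side B. Of the 23 tested genes of the ATF4 list described later, 19 had a promoter window in the RefSeq table, and 6 of those (31.6%) held the CEBP-ATF element: Asns, Atf3, Chac1, Nupr1, Trib3 and Vldlr. The list was drawn up around ATF4, so this share describes the list and not the division. Among the 7583 tested genes at 10 CPM or more with a window the share was 2.31%. Among all 27025 gene symbols in that table it was 4.51%, with 0.0444% for element II and 0.137% for the ER stress response element. The same count over the separated genes is not given here, as only 59 of 81 higher on side B and 45 of 68 higher on side A had a window. Windows were also missing for part of the tested genes at 10 CPM or more, with 7583 of 9927 covered.

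Total gene counts were 10381307 to 11663081 per library and overlapped between the sides. Mitochondrial transcripts took 3.67% to 4.01% of counts on side A and 3.46% to 3.71% on side B, ranges that also overlap. The first principal component held 35.0% of the variance and placed side A between -23.5 and -11.7 and side B between 14.2 and 19.8. Across genes, which are not independent replicates, log2 levels correlated at 0.987 to 0.988 for the 6 pairs of libraries within a side and at 0.981 to 0.985 for the 9 pairs between sides. The embryonal carcinoma markers Pou5f1 and Lin28a had similar levels on both sides, with log2 differences of -0.10 and 0.05. Other such markers differed more: Sox2 was higher on side A with no overlap, at 0.54, and Nanog, given later, leaned towards side B. Markers of retina summed to 11.9 to 13.9 CPM (counts per library size) on side A and 9.73 to 14.5 CPM on side B. Sums of markers carry no TMM factor, while CPM values of single genes are scaled by TMM factors. The photoreceptor genes Arr3, Crx, Opn1mw and Opn1sw had 0 counts in all 6 libraries, which allows up to 0.257 to 0.289 CPM (3 counts of a library, counting error only). Blood and immune markers summed to 12.2 to 14.2 CPM on side A and 15.1 to 17.7 CPM on side B over 15 genes, with Cd3e and Cd8a at 0, and fibroblast and muscle markers to 176 to 223 and 184 to 195 CPM over 14 genes. The part of such cells in the differences that follow was not tested.

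In what follows a gene is called separated when every library of one side lay above every library of the other and the fitted difference was at least 1.5-fold. Of 13836 genes with enough counts, 265 (1.92%) were separated with higher values on side A and 269 (1.94%) with higher values on side B. Most were weakly expressed, with 197 and 188 of them under a mean of 10 CPM. Among the 9929 genes at a mean of at least 10 CPM, 68 (0.685%) were separated and higher on side A and 81 (0.816%) on side B. Of these, 11 and 12 differed at least 2-fold. Leaving out control 2 raised the 68 genes to 108, and leaving out PDTLN1 3 raised both numbers, to 103 and 126, as fewer libraries then have to be kept apart. Without the 1.5-fold limit, the sides did not overlap for 3931 genes (28.4%), while the labelled groups did not overlap for 9.79%; the sides were chosen to differ, so the gap between these shares is a description of the choice. The division was therefore broad and mostly shallow, with a small number of strongly separated genes.

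**Figure D1:**
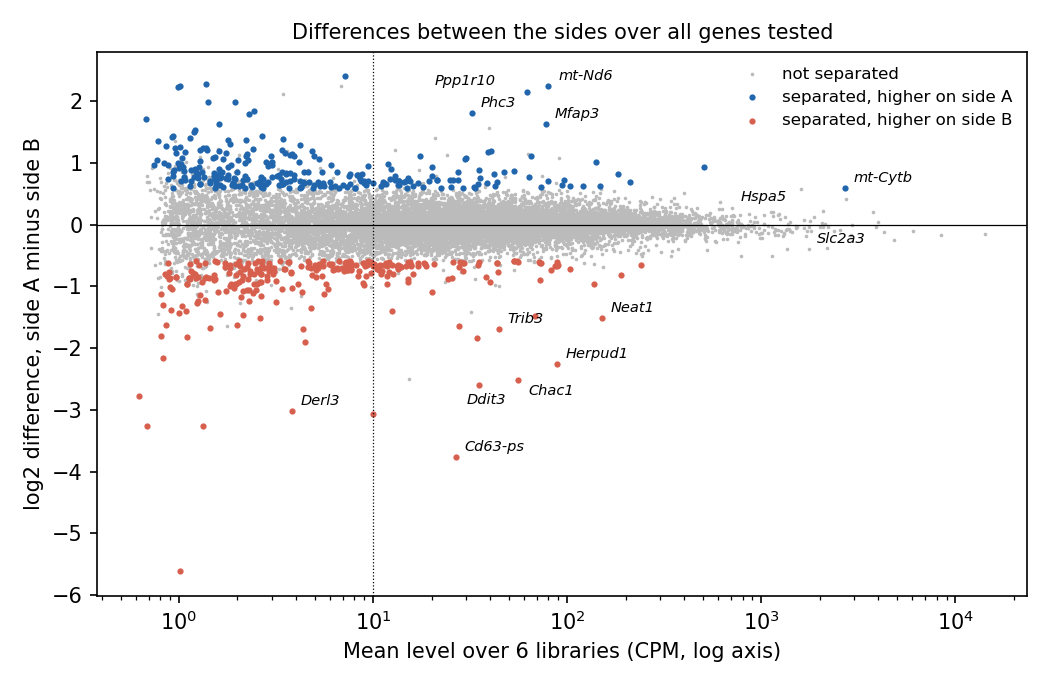
Each point is 1 of 13836 genes, plotted by its mean level over 6 libraries (CPM, log axis) and its log2 difference, side A minus side B. Coloured points are the 265 and 269 separated genes and the dotted line marks 10 CPM; most genes lie near 0, and Ddit3, Chac1 and Herpud1 lie between -2.26 and -2.59.

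Of the markers of the division, 3 stress genes were 4.78 to 6.04 times higher on side B. Ddit3 encodes CHOP, the transcription factor that links prolonged ER stress to cell death. On side A it stood at 10.3 CPM in control 1, 7.39 CPM in PDTLN1 2 and 12.3 CPM in PDTLN1 3, and on side B at 43.4 CPM in control 2, 71.3 CPM in control 3 and 66.3 CPM in PDTLN1 1. Every side B library was thus more than 3 times as high as any side A library, whichever treatment it carried. The fitted log2 difference, side A minus side B, was -2.59 with a standard error (SE) of 0.28.

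Chac1, an enzyme that degrades glutathione and is among the most responsive ATF4 targets, had a log2 difference of -2.52 (SE 0.22). Its levels were 16.1, 12.7 and 20.6 CPM in control 1, PDTLN1 2 and PDTLN1 3, and 75.8, 109 and 99.1 CPM in control 2, control 3 and PDTLN1 1. Herpud1, a membrane protein that helps to assemble the complex for degradation of ER proteins, was almost the same in the 3 side A libraries, at 30.6, 30.8 and 30.9 CPM. On side B it stood at 106 CPM in control 2, 181 CPM in control 3 and 155 CPM in PDTLN1 1, a log2 difference of -2.26 (SE 0.22). In all 3 genes control 2 was the lowest library of side B. Ddit3 (ENSMUSG00000025408) lies at chr10:127290774-127296288, Chac1 (ENSMUSG00000027313) at chr2:119351229-119354381 and Herpud1 (ENSMUSG00000031770) at chr8:94386438-94395377, all protein-coding genes on the plus strand of GRCm38.

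The other 2 genes named as markers of the division did not separate the sides. Ndrg1, a hypoxia and stress responsive gene, stood at 50.2, 16.9 and 53.04 CPM in control 1, PDTLN1 2 and PDTLN1 3, and at 57.3, 50.01 and 91.8 CPM in control 2, control 3 and PDTLN1 1. Slc2a3, which encodes the glucose transporter GLUT3, stood at 1513, 1243 and 1816 CPM on side A and at 1871, 1806 and 2321 CPM on side B in the same order. For both genes the sides overlapped, PDTLN1 2 was the lowest library and PDTLN1 1 the highest. Their log2 differences were -0.73 (SE 0.54) and -0.39 (SE 0.18). Thus 3 of the 5 markers separated the sides and 2 did not, and the ER chaperone gene Hspa5, described later, had the opposite order to Ddit3.

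**Figure D2:**
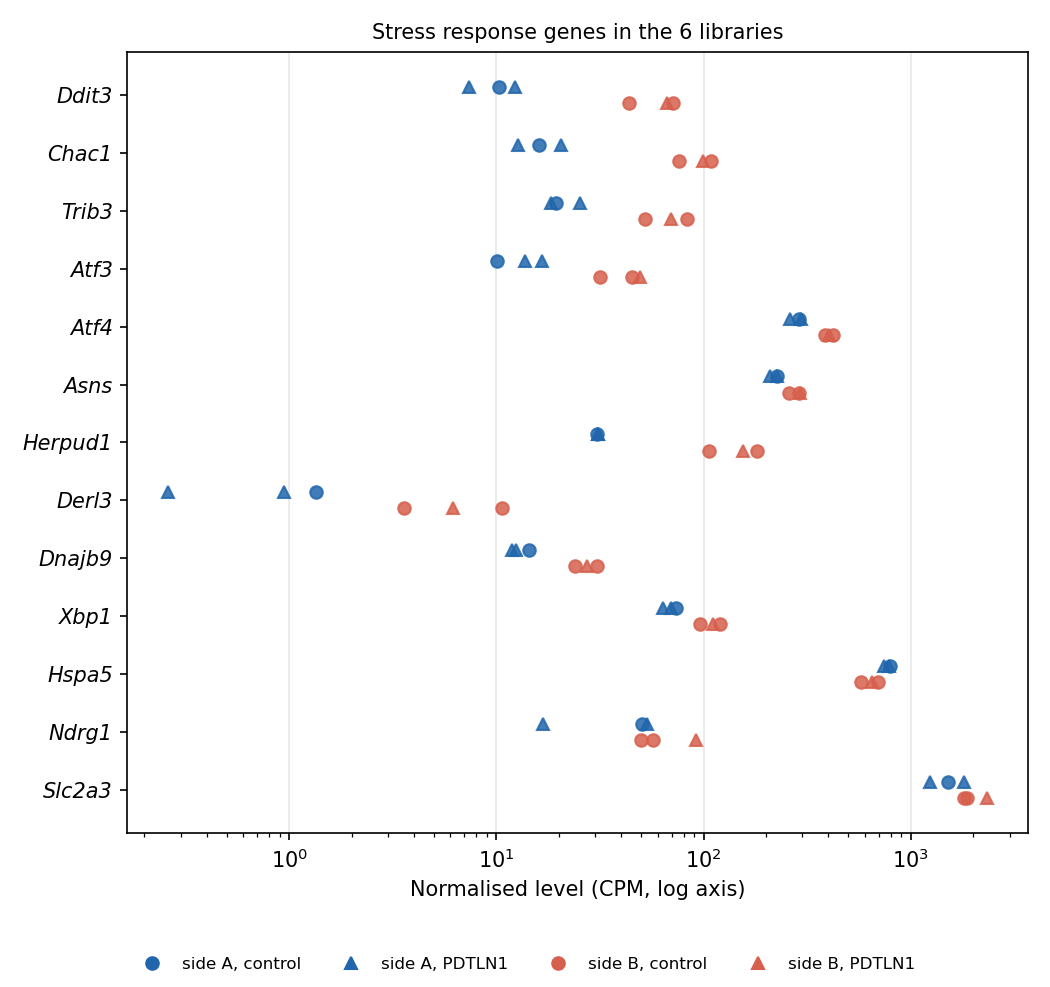
Levels of 13 stress genes (CPM, log axis), 1 point per library, with side A in blue, side B in red, controls as circles and PDTLN1 as triangles. The sides stand apart for Ddit3, Chac1, Trib3, Atf3, Herpud1 and Derl3, overlap for Ndrg1 and Slc2a3, and have the opposite order for Hspa5.

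The ATF4 and amino acid response genes were mostly higher on side B: of 23 tested members, 20 had a log2 difference below 0. The median was -0.33 against -0.0005 over all genes tested. Of the members, 7 were separated, all higher on side B, as were 1.94% of all genes tested. Ddit3 and Chac1, markers of the division, are among these 7 and in the list levels, so the list is no separate evidence on the division. The 2 members not tested were Fgf21 and Gdf15. The mean deviation of the list from its own average was -0.30 in control 1, -0.48 in PDTLN1 2 and -0.17 in PDTLN1 3, and 0.18 in control 2, 0.36 in control 3 and 0.41 in PDTLN1 1. The members were uneven. The upstream regulators of the list had a median of -0.10 with 0 of 6 separated, the transcription factor targets one of -1.10 with 3 of 6 separated, and the enzymes and effectors one of -0.35 with 4 of 11 separated.

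Among the regulators, Atf4 itself had 289, 262 and 295 CPM in control 1, PDTLN1 2 and PDTLN1 3, and 385, 422 and 401 CPM in control 2, control 3 and PDTLN1 1. The sides did not overlap, but the log2 difference of -0.51 was under the 1.5-fold limit. The kinase genes Eif2ak3 (PERK) and Eif2ak4 (GCN2) stood at -0.07 and 0.04 with overlapping sides. Ppp1r15a, the stress-induced phosphatase subunit that reverses eIF2 phosphorylation, also overlapped (-0.13, SE 0.20), with control 1 lowest at 24.3 CPM and the other libraries at 35.8 to 42.1 CPM.

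Among the targets, Trib3, a pseudokinase that restrains ATF4 signalling, stood at 19.4, 18.2 and 25.4 CPM on side A (control 1, PDTLN1 2, PDTLN1 3) and 51.9, 83.0 and 69.4 CPM on side B (control 2, control 3, PDTLN1 1), a log2 difference of -1.70 (SE 0.21). Atf3, a stress-induced transcription factor of the same family as ATF4, stood at 10.1, 13.8 and 16.7 CPM and at 31.6, 45.3 and 49.5 CPM in those orders (-1.64, SE 0.24). Both followed the order of Ddit3 and Chac1 between the sides with no overlap. Cebpb, a partner of ATF4 on composite elements, had 11.8 to 13.7 CPM on side A and 15.6 to 21.4 CPM on side B, a difference of -0.56 that stayed under the limit. Atf5, a related factor, had the opposite order at 0.17. Of the 7 separated members, Atf3, Chac1, Nupr1 and Trib3 held the CEBP-ATF element in their promoter window, Trib3 just after the start site at 15, and Ddit3, Ddit4 and Sesn2 held no match in theirs.

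Sesn2, a leucine-sensing inhibitor of the growth kinase complex mTORC1, stood at 57.6 to 66.3 CPM on side A and 91.8 to 118 CPM on side B (-0.73, SE 0.10). Ddit4, another mTORC1 inhibitor, was separated at -0.96 with an SE of 0.46, with PDTLN1 2 at 42.5 CPM, the other side A libraries at 117 and 122 CPM, and side B at 165 to 216 CPM. The side A libraries thus did not share 1 level. Asns, asparagine synthetase, a classic ATF4 target, differed by less, with 210 to 226 CPM on side A and 258 to 292 CPM on side B (-0.35).

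Genes of amino acid supply had the same direction with smaller differences. All 10 genes of serine synthesis and one-carbon metabolism lay below 0, with a median of -0.23 and 1 separated. That gene was Pck2, mitochondrial phosphoenolpyruvate carboxykinase, at 50.9, 41.9 and 59.5 CPM in control 1, PDTLN1 2 and PDTLN1 3 and 79.2, 100.2 and 104 CPM in control 2, control 3 and PDTLN1 1 (-0.90, SE 0.15). Mthfd2, a mitochondrial folate enzyme, was next to it at -0.50, with no overlap. Of 12 amino acid transporters, 8 lay below 0 (median -0.19). Slc3a2 and Slc7a5, the chains of the leucine transporter LAT1, were at -0.65 and -0.51; only Slc3a2 passed the 1.5-fold limit, with 182 to 189 CPM on side A and 248 to 321 CPM on side B. Cytosolic aminoacyl-tRNA synthetases, which charge tRNAs, differed little: 16 of 20 lay below 0, with a median of -0.08 and 0 separated, and the largest was Aars at -0.28.

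The ER folding genes were split by role. Of 12 chaperones, 10 lay below 0 (median -0.22) and 2 were separated and higher on side B, as were 1.94% of all genes tested. Of 6 disulfide isomerases and oxidases, 5 lay below 0 (median -0.22). Of the 5 sensors and transcription factors only 1, Xbp1, did (median 0.23). Dnajb9, an ER co-chaperone and XBP1 target, stood at 14.4, 11.9 and 12.4 CPM in control 1, PDTLN1 2 and PDTLN1 3, and at 24.0, 30.7 and 27.5 CPM in control 2, control 3 and PDTLN1 1 (-1.09, SE 0.12). Sdf2l1, an ER chaperone cofactor, was at -0.69 (19.1 to 22.3 and 28.9 to 41.4 CPM), and Xbp1 at -0.67 (63.5 to 73.6 and 96.5 to 120 CPM). These counts do not tell spliced from unspliced Xbp1 mRNA.

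Abundant chaperones differed by smaller steps, and 1 of them in the other direction. Calr (calreticulin), Hsp90b1 and Pdia4 had log2 differences of -0.51, -0.39 and -0.45, each with no overlap. Hspa5 encodes BiP, the main ER chaperone and a standard marker of the unfolded protein response. It stood at 796, 782 and 744 CPM in control 1, PDTLN1 2 and PDTLN1 3, and at 575, 694 and 648 CPM in control 2, control 3 and PDTLN1 1. Side A was thus higher for Hspa5 in every library, at 0.28 (SE 0.06), while Ddit3 and Herpud1 were higher on side B. Creb3l2, a transcription factor processed at the ER and Golgi, was the 1 separated gene of the list with higher values on side A, at 23.5 to 25.5 CPM against 12.5 to 17.7 CPM (0.71, SE 0.13).

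ER-associated degradation, which exports misfolded proteins for destruction, had 12 of 17 genes below 0 and a median of -0.06. The mean deviation of the list was -0.17 to -0.15 on side A and 0.03 to 0.24 on side B. The members furthest from 0 were the 2 separated genes, Herpud1 and Derl3, both higher on side B, as were 1.94% of all genes tested. These 2 make up most of that gap. Herpud1 is a marker of the division, so the gap is no separate evidence on the list. Derl3, a channel component of this pathway, was weakly expressed, with 1.34, 0.26 and 0.94 CPM in control 1, PDTLN1 2 and PDTLN1 3 and 3.56, 10.7 and 6.19 CPM in control 2, control 3 and PDTLN1 1. The 3 counts that a library needs to be told from 0 come to 0.257 to 0.289 CPM, and PDTLN1 2 lay at that level. Its log2 difference of -3.01 had an SE of 0.60. Core members such as Vcp, Sel1l and Derl1 lay between -0.06 and 0.02, and all overlapped.

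**Figure D3:**
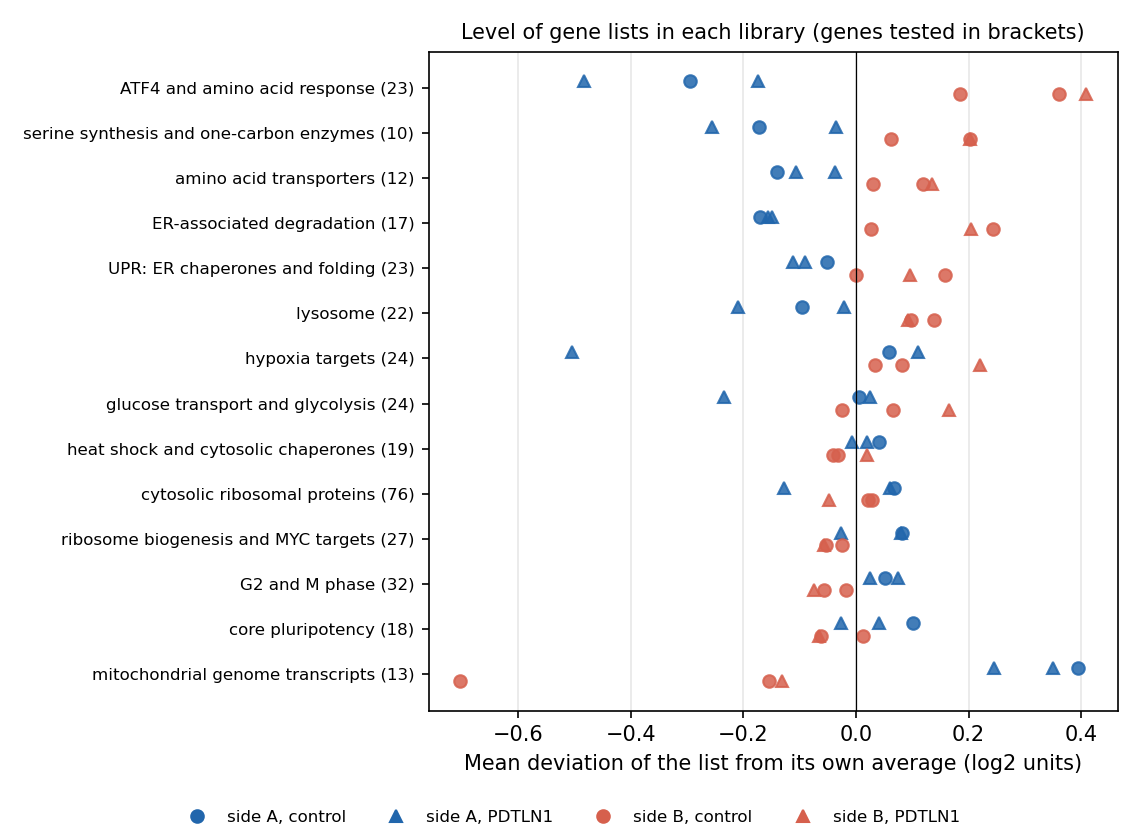
Mean deviation of 14 gene lists from their own average (log2 units), 1 point per library, with the number of genes tested in brackets; side A is blue, side B red, controls are circles and PDTLN1 triangles. The ATF4 list runs from -0.48 to 0.41 with the sides apart, and the hypoxia list is low in PDTLN1 2 alone, at -0.50.

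For hypoxia and glucose genes, 1 library stood apart from the other 5, and the sides overlapped. Of 24 hypoxia targets and regulators, 19 lay below 0 (median -0.17). The 2 separated genes, Vegfa and Ddit4, were higher on side B, as were 1.94% of all genes tested. PDTLN1 2 had a mean deviation of -0.50 and the others 0.03 to 0.22. Without PDTLN1 2 the median was -0.04. Glycolysis and glucose transport had the same shape, with -0.24 in PDTLN1 2 and -0.02 to 0.16 elsewhere, and 0 of 24 genes separated. Vegfa, the vascular growth factor, did not depend on that library: its side A values were 36.2, 30.2 and 31.6 CPM and its side B values 45.7, 55.5 and 65.8 CPM in control 2, control 3 and PDTLN1 1 (-0.77, SE 0.13).

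Lysosomal genes were higher on side B by small and even amounts. Of 22 members, 20 lay below 0, and in 16 every side B library lay above every side A library, as was so for 14.4% of all genes tested. The median was -0.20 and 1 member, Hexa, was separated. Hexa, a subunit of hexosaminidase, had 1.44 to 1.88 and 2.32 to 2.69 CPM. Ctsa, Neu1 and Mcoln1, which encode cathepsin A, a sialidase and a lysosomal calcium channel, had log2 differences of -0.56, -0.48 and -0.46. The heat shock list had a median of 0.05 and the NRF2 list, which answers oxidants, one of 0.03; both held 0 separated genes and their sides overlapped. The autophagy list had 13 of 19 genes below 0 (median -0.08) with 0 separated, and its mean deviation kept the sides apart, at -0.05 to -0.03 against 0.01 to 0.08. The p53 target list had 12 of 18 below 0 (median -0.10), with a mean deviation of -0.10 to 0.02 on side A and 0.03 to 0.06 on side B. It held 2 separated genes, both higher on side B, as were 1.94% of all genes tested. They were Sesn2 and the death gene Bbc3 (-0.72), which was weakly expressed at 4.27 to 5.30 and 6.66 to 8.71 CPM.

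Some of the strongest differences towards side B fell outside these stress lists. Zfp57, a zinc finger protein that protects imprinted methylation, stood at 32.5, 34.7 and 40.5 CPM in control 1, PDTLN1 2 and PDTLN1 3 and at 93.3, 106 and 103 CPM in control 2, control 3 and PDTLN1 1 (-1.49, SE 0.09). The gap between its sides was 1.19 on the log2 scale and the widest side spanned 0.31. Imprinted genes as a list had a median of -0.09 with 0 of 18 separated. Neat1, the long noncoding RNA that builds paraspeckles, stood at 93.8, 69.2 and 73.4 CPM and 151, 267 and 255 CPM in the same orders (-1.51, SE 0.29). Cirbp, a cold-inducible RNA-binding protein, had little spread at 33.5 to 34.4 and 51.7 to 53.6 CPM (-0.62); like Aqp3, Pprc1 and Amd1 it was named after its values were seen.

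Other large differences rested on fewer libraries or on uncertain counting. Tspan2, a tetraspanin, was at 14.2 to 15.9 CPM on side A, and on side B at 70.3 CPM in control 2, 24.6 CPM in control 3 and 66.7 CPM in PDTLN1 1 (-1.83). Ramp2, a receptor activity modifying protein, was at 2.02 to 2.22 CPM on side A and at 34.9 and 16.3 CPM in control 2 and control 3, but PDTLN1 1 had 2.61 CPM, next to side A (-3.06, SE 1.10). The value was -2.15 without control 2 and -2.13 with treatment as a term. Cd63-ps, a processed pseudogene, stood at 9.21, 0.35 and 1.79 CPM on side A and 46.2 to 51.6 CPM on side B (-3.76, SE 0.83). Its value was -5.52 without control 1. Its parent gene Cd63 stood at -0.25, and reads of the pair may be shared. Aqp3, a water and glycerol channel, was at -1.39, with side A at 2.87 to 10.7 CPM and side B at 14.8 to 23.5 CPM.

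Among the genes higher on side A, Ppp1r10, Phc3 and the mitochondrial mt-Nd6 had the largest differences at 10 CPM or more. Ppp1r10 encodes PNUTS, a phosphatase 1 regulator that slows RNA polymerase II at the ends of genes. It stood at 95.8 CPM in control 1, 124 CPM in PDTLN1 2 and 82.9 CPM in PDTLN1 3, and at 30.2 CPM in control 2, 16.5 CPM in control 3 and 21.3 CPM in PDTLN1 1. The sides were far apart, with a log2 difference of 2.16 (SE 0.28). Phc3, a subunit of the repressive Polycomb complex 1, had the tightest sides of the leading genes, at 48.3, 53.4 and 49.1 CPM and at 13.4, 13.6 and 16.0 CPM in the same orders (1.81, SE 0.10). Ppp1r10 (ENSMUSG00000039220) lies at chr17:35916434-35932283 on the plus strand and Phc3 (ENSMUSG00000037652) at chr3:30899371-30969415 on the minus strand of GRCm38.

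Pcf11 and Rbbp6 are factors of mRNA cleavage and polyadenylation, a list of which, drawn up after these genes were seen, had a median of -0.02 with 14 of 26 members below 0. Pcf11 had 91.6, 95.4 and 80.9 CPM in control 1, PDTLN1 2 and PDTLN1 3 and 42.9, 36.0 and 45.6 CPM in control 2, control 3 and PDTLN1 1 (1.11, SE 0.10). Rbbp6 had 182, 222 and 164 CPM and 108, 83.9 and 88.9 CPM (1.02, SE 0.14). Both were higher on side A with no overlap. Hnrnpa3, a splicing regulator, had 46.5 to 59.2 and 14.7 to 33.9 CPM (1.17, SE 0.33), and Taf13, a subunit of the initiation factor TFIID, 19.8 to 27.6 and 9.56 to 11.9 CPM (1.12, SE 0.14). The list of spliceosome and SR proteins as a whole was centred at 0.00, with 0 of 32 separated.

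Fbxw7, the ubiquitin ligase subunit that targets MYC and cyclin E, stood at 36.4 to 45.4 CPM on side A and 16.8 to 21.7 CPM on side B (1.07, SE 0.12). Pprc1, a coactivator of mitochondrial biogenesis, was at 178 CPM in each of the 3 side A libraries and at 112 to 121 CPM on side B (0.63, SE 0.05). Amd1, the enzyme that commits methionine to polyamine synthesis, was at 0.78, with 70.6 to 84.9 and 39.7 to 50.8 CPM. Elovl6, a fatty acid elongase, was the 1 separated gene of 14 in fatty acid synthesis, at 230 to 315 and 153 to 171 CPM (0.69, SE 0.14). Mrpl18, a mitochondrial ribosomal protein, was at 119 to 122 and 65.9 to 79.2 CPM (0.73, SE 0.07) and was the only separated gene of 34 in its list, whose median was 0.06.

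Mfap3 and Ccdc71 did not have 1 level per side. Mfap3, a microfibril-associated protein gene, had 156 and 150 CPM in PDTLN1 2 and PDTLN1 3, but control 1 had 46.4 CPM, close to the 34.0 to 43.6 CPM of side B (1.62, SE 0.55). Ccdc71, which encodes a coiled-coil protein, had 37.0 to 45.5 CPM on side A and 34.3 CPM in control 2, with control 3 and PDTLN1 1 at 12.1 and 11.3 CPM (1.06, SE 0.51). It stood at 1.78 without control 2. Tmed2, a cargo receptor of the early secretory pathway, had a difference of 2.24 that came from control 1 at 29.9 CPM, with 1.54 to 2.51 CPM in the other libraries, so its sides overlapped; it was -0.23 without control 1.

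**Figure D4:**
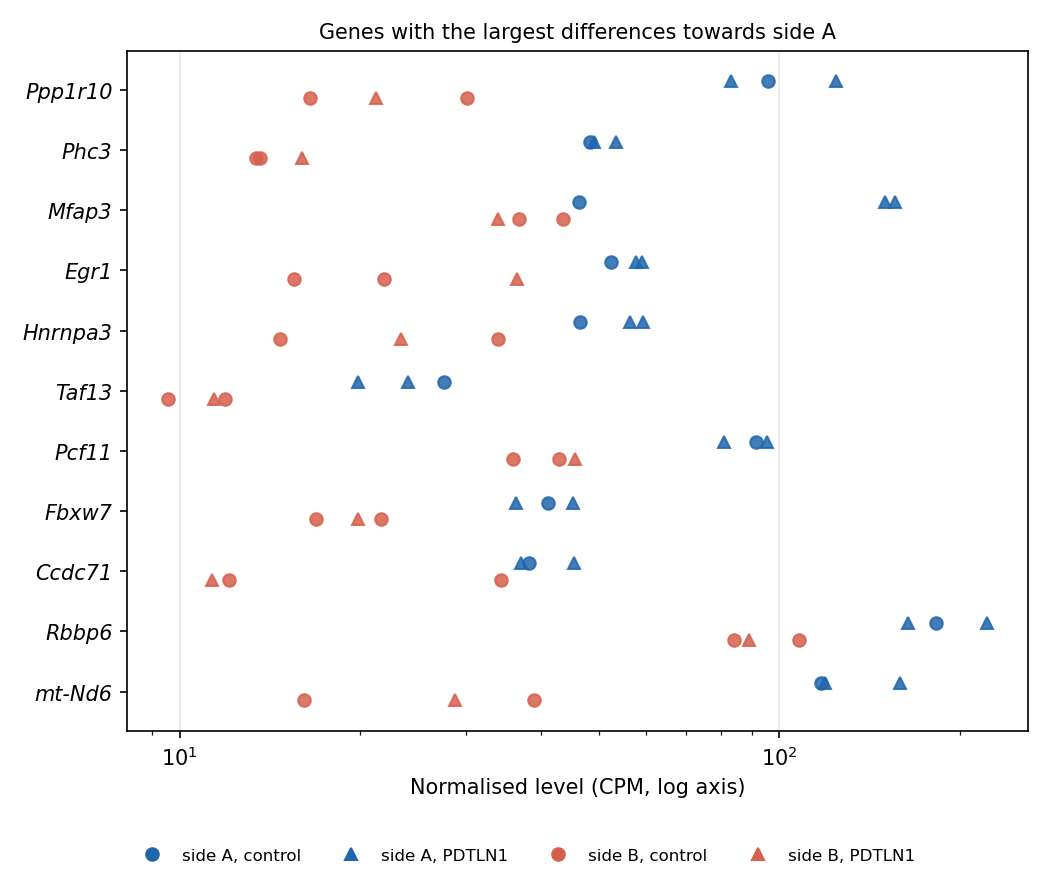
Levels of the 10 leading genes higher on side A and of Rbbp6 (CPM, log axis), 1 point per library; side A is blue, side B red, controls are circles and PDTLN1 triangles. Phc3 and Pcf11 form tight groups, while control 1 lies near side B for Mfap3 and control 2 near side A for Ccdc71.

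Transcripts of the mitochondrial genome moved unevenly. Of 13 tested, 10 lay above 0 with a median of 0.22, while 6906 of all 13836 genes tested lay above 0. Of the 13, 4 were separated with higher values on side A, as were 1.92% of all genes tested. mt-Nd6, the only protein gene read from the light strand, stood at 117, 119 and 159 CPM in control 1, PDTLN1 2 and PDTLN1 3 and at 38.9, 16.1 and 28.7 CPM in control 2, control 3 and PDTLN1 1 (2.24, SE 0.37). Whether the counting used strand is not known, so its reads cannot be told from antisense RNA of the same place. mt-Nd3 and mt-Cytb, parts of complexes I and III, were at 0.82 and 0.59, and mt-Nd2 and mt-Nd1 at 0.58 and 0.42 with no overlap. mt-Co1, part of complex IV, had the opposite order at -0.15, and mt-Atp6, mt-Nd5 and mt-Co3 lay between -0.00 and 0.03.

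mt-Nd4l passed the rule only through an odd library. Control 2 had 0.09 CPM while the other 5 libraries had 508 to 741 CPM, and its log2 difference of 0.93 had an SE of 1.52. This gene overlaps mt-Nd4, for which the sides overlapped (0.22). The mean deviation of the list includes this gene, and in control 2 it was -0.70, against -0.15 and -0.13 in the other side B libraries. That low value rests largely on mt-Nd4l. For the other separated genes, mt-Nd6, mt-Nd3 and mt-Cytb, control 2 was the highest library of side B, at 38.9, 153 and 2259 CPM. Nuclear genes of oxidative phosphorylation did not move with these transcripts: their median was 0.005 over 47 genes, with 0 separated.

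Growth and cell identity genes differed by small amounts. Of 32 genes of G2 and M phase, 28 lay above 0 (median 0.10) and 0 were separated. In 14 of them every side A library lay above every side B library, as was so for 14.0% of all genes tested. The mean deviation of that list was 0.03 to 0.07 on side A and -0.07 to -0.02 on side B. Of 27 genes of ribosome biogenesis 23 lay above 0 (median 0.09, 0 separated), and the list levels of the sides overlapped. S phase genes were centred at -0.05. Within the immediate early list, Egr1, a target of growth factor signalling, was higher on side A, at 52.4, 58.9 and 57.6 CPM against 21.9, 15.5 and 36.6 CPM (1.19, SE 0.33). Jun, of the AP-1 family, was higher on side B, at 54.4 to 63.3 and 80.2 to 103 CPM (-0.63). Dusp6 and Spry2, feedback inhibitors of FGF and MAPK signalling, were at 0.54 and 0.44, and Fos at 0.54 with overlap.

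The core pluripotency genes held 0 separated members of 18, and their directions were mixed. Sox2 stood at 81.4 to 98.9 CPM on side A and 56.0 to 66.5 CPM on side B, a difference of 0.54 just under the 1.5-fold limit, while Nanog stood at -0.25 and Zscan10 at -0.45. Of 11 tested genes of the naive state, 7 lay below 0 (median -0.13) and 4 reached 10 CPM. The mean deviation of that list overlapped between the sides. Of the 11, 3 were separated and higher on side B, as were 1.94% of all genes tested. They were Klf5 (-0.84, with 7.13 to 9.22 and 13.1 to 18.1 CPM), Klf2 (-0.73, with 4.95 to 7.10 and 8.81 to 10.8 CPM) and Tbx3 (-0.67, with 10.3 to 13.3 and 18.3 to 19.7 CPM). Fgf4, a growth factor of pluripotent cells, had the opposite order at 0.53. The remaining lists had medians between -0.12 and 0.09, apart from 6 tested histone genes at 0.25, a value that was 0.11 without control 1, 0.44 without control 2 and 0.50 without PDTLN1 1. In those lists the separated genes were Mt2 (-0.86), Dkk1 (-0.70), Ctgf (-0.67), Tubb3 (-0.59), Irf9 (0.64), Cd68 (-0.72), Hist1h1c (0.70) and Hist1h3c (-0.83). Cd68 is a macrophage marker and had 4.26 to 7.17 and 8.25 to 10.7 CPM.

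The separated genes at 10 CPM or more also differed in features that their choice did not use. The median GC content of the longest transcript was 46.6% for genes higher on side A, 53.3% for those higher on side B and 49.4% for all 9912 genes with a value. Median transcript length was 4775, 3114 and 3610 bases in the same order. Genes named Zfp, for zinc finger proteins, made up 1 of 68 (1.47%), 7 of 81 (8.64%) and 2.28% of all. The part of GC content or length in the differences was not tested.

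Each side holds both treatments, so the labelled comparison can be read beside the division, with which it shares every library. edgeR's quasi-likelihood test called 3 of 13836 genes (0.0217%) between PDTLN1 and control at an adjusted p under 0.05, all higher after PDTLN1. They were Dcbld2, a neuropilin-like membrane protein (log2 difference 1.67, SE 0.08, edgeR adjusted p 4.92e-05), the inositol kinase Ipmk (1.45, SE 0.11, edgeR adjusted p 0.00178) and the phosphatase 1 subunit Ppp1cb (0.97, SE 0.10, edgeR adjusted p 0.0459). With the replicate number as a block Dcbld2 alone passed, and Ppp1cb also did not pass without control 2, control 3 or PDTLN1 3. Without any 1 library the count was 2 to 13. A fit with the side as a term gave 4 calls (0.0289%), and 12 to 40 without any 1 library. The side was taken from the same counts, so the spread left in that fit is too small and its calls are given as a count only.

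Ipmk stood at 22.0, 26.5 and 23.1 CPM in control 1, control 2 and control 3 and at 69.2, 59.0 and 67.8 CPM in PDTLN1 1, PDTLN1 2 and PDTLN1 3. Libraries of the same treatment thus lay together whichever side they were on. Ddit3, Chac1 and Herpud1 had treatment differences of -0.55 (SE 1.14), -0.61 (SE 1.10) and -0.56 (SE 1.01), and none passed. The large SEs go with labelled groups that each hold libraries of both sides. These genes stood out because of the division and Ipmk because of the treatment, so setting them side by side is a description that follows from how they were chosen.

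**Figure D5:**
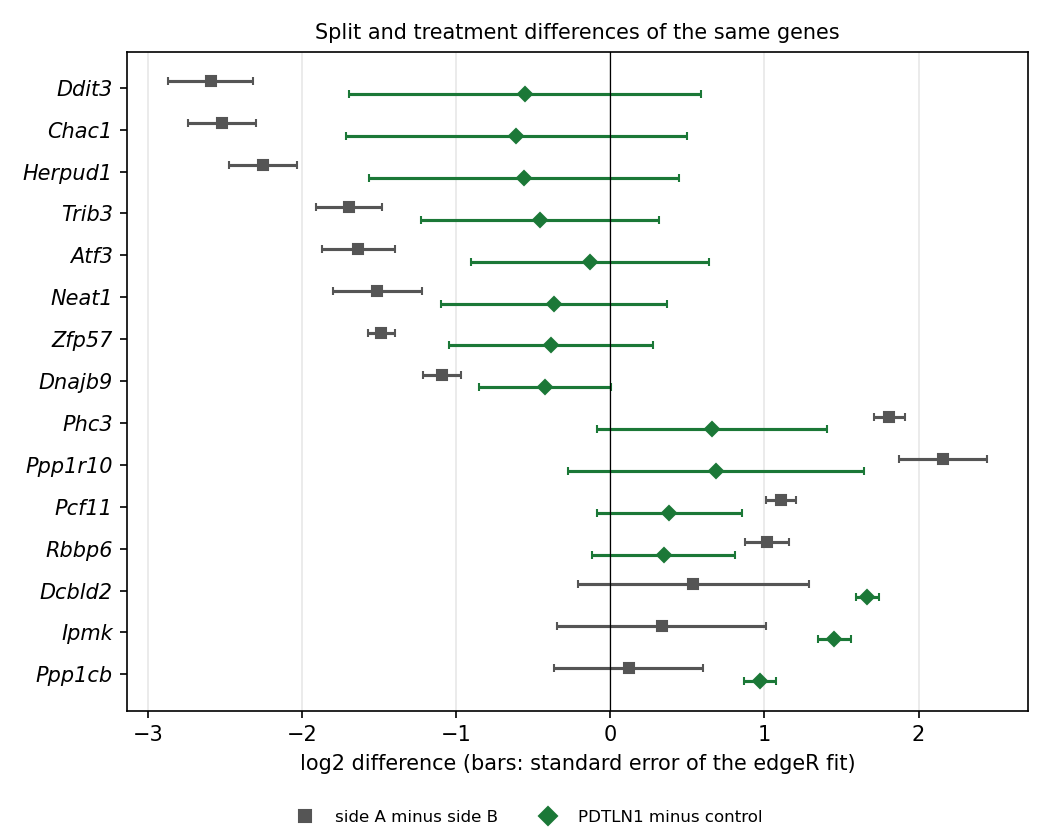
Log2 differences of 15 genes between the sides (grey squares, side A minus side B) and between the treatments (green diamonds, PDTLN1 minus control), with bars for the SE of each edgeR fit; both fits use the same 6 libraries. The first 12 genes were chosen from the division and Dcbld2, Ipmk and Ppp1cb from the treatment test, so the larger of the 2 differences follows from the choice.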

How the data were processed

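RNA-seq of 3 control and 3 PDTLN1 libraries was available as gene counts and FPKM. The counts, deposited by the authors and named so per the file headers, are whole numbers per gene; the FPKM values deposited by the authors are scaled by gene length and library total and were used only for implied gene lengths. Bowtie 0.12.2, mm8 and mm9 appear in the submitters' processing notes with no role. For the counter, its strand setting and the annotation, the answer is not given in the sources used here, so counts of overlapping, antisense and duplicated genes are uncertain. Positions of 10477 of 13794 tested genes found in GENCODE M21 (76%) were identical with it, so coordinates are in GRCm38.

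Of 34745 genes, edgeR 4.0.16 (R 4.3.3; filterByExpr, TMM, robust glmQLFit) kept 13836. CPM values are TMM-scaled. The sides were taken as given and have no p-values; treatment was tested with glmQLFTest, two-sided, with Benjamini-Hochberg adjustment over all genes and a threshold of 0.05. The steps were tested on simulated data. List levels are means of log2 CPM, with 0.5 CPM added, around each gene's average. Principal components and correlations used log2 CPM with a prior count of 2. Features and motifs came from GENCODE M21 and RefSeq promoters.

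The sides, members and 41 gene lists were chosen with earlier results of these data known. Named are the 5 markers, the 10 separated genes per direction with the largest difference at 10 CPM or more, up to 4 leading members per list and genes past the treatment test; genes with clone names are not named, and other list members were named after their values were seen. Same-numbered libraries of the groups deviated against each other (correlations -0.36, -0.14 and -0.10) and no label pairs them, so no block was used. Alternatives were 2-fold, other filters, DESeq2 1.42.0 size factors, its fold changes and Wald test, library size alone, treatment as a term, the replicate block, and each library left out.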

Additional observations from a re-analysis of the deposited data

How the results depend on the processing

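With 2-fold in place of 1.5-fold, 68 genes were separated and higher on side A and 58 on side B, and 11 and 12 at 10 CPM or more. Without a filter on low counts the numbers were 547 and 517, from more genes tested. Leaving out 1 library gave 327 to 417 and 324 to 484 genes, and 70 to 108 and 79 to 126 at 10 CPM or more, as fewer libraries have to be kept apart; the counts moved by over 1.5 times without control 2, PDTLN1 1 or PDTLN1 3 for side A and without PDTLN1 3 for side B. Scaling by DESeq2 size factors or library size alone, DESeq2 fold changes, the stricter filter, treatment as a term and the replicate block (267 and 263 genes) stayed within 1.5 times of the counts reported. The treatment test called 1 gene with the replicate block, 14 with DESeq2, 8 without a filter and 2 to 13 without 1 library; with the side as a term it called 12 to 40 without 1 library. Over 132 named genes and 13 alternatives, 1711 values moved by less than the spread between libraries, 4 moved by more, and no separated gene changed sign. The 4 were Cd63-ps and Tmed2 without control 1, Ccdc71 without control 2 and Hexa without PDTLN1 3. Of the list medians 478 stayed, 36 moved, and 6 that are not among those 36 changed sign. Some of the 36 changed sign too. Wnt targets went from -0.0157 to 0.0481 with treatment as a term and 0.0554 without control 3. The TGF-beta, Nodal and BMP list went from 0.0306 to -0.0523 without control 1 and -0.0531 without control 2. Cholesterol synthesis went from -0.0113 to 0.0248 without PDTLN1 2, and the metallothionein list from -0.0556 to 0.0195 without PDTLN1 3. The cleavage and polyadenylation list turned to 0.0128 with treatment as a term and ran from -0.0324 to 0.0231 without 1 library, above 0 without control 3, PDTLN1 2 or PDTLN1 3. The immediate early list ran from -0.135 to 0.0395 without 1 library, above 0 without control 2 or PDTLN1 2; both lie near 0 and the cause was not tested. Genes near 1 CPM rest on about 10 counts a library, and differences under 1.5-fold are not called at any depth. No pseudocount alternative applied to the counts.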

Other observations

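A list of 26 mRNA cleavage and polyadenylation factors was drawn up after Ppp1r10, Pcf11 and Rbbp6 had been seen among the leading genes, so it is no separate evidence on them. Those 3 and Clp1 (0.72, SE 0.29) were its 4 separated members, all higher on side A, as were 1.92% of all genes tested. Clp1 had 28.4 to 35.5 CPM on side A and 14.9, 27.4 and 14.1 CPM in control 2, control 3 and PDTLN1 1, so control 3 lay next to side A. Cstf3 and Wdr33, parts of the cleavage stimulation and polyadenylation specificity complexes, stood at 0.57 and 0.41 with no overlap. Over all 26 members, these included, 14 lay below 0 and the median was -0.02.

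A list of 27 genes of nutrient sensing by mTORC1 was also drawn up after values were seen, and Sesn2 and Ddit4 belong to the stress lists too. Of 25 tested, 18 lay below 0 (median -0.08) and 3 were separated, all higher on side B, as were 1.94% of all genes tested. Flcn, the folliculin gene, which acts on the Rag GTPases at the lysosome, stood at 66.7, 84.5 and 82.4 CPM in control 1, PDTLN1 2 and PDTLN1 3 and at 125, 135 and 126 CPM in control 2, control 3 and PDTLN1 1 (-0.72, SE 0.09). Its partner Fnip1 and the GTPase gene Rragc were at -0.41 and -0.40 with no overlap. Rragd, the related GTPase gene, overlapped, with control 2 and PDTLN1 1 at 43.2 and 47.2 CPM and the other libraries at 79.5 to 112 CPM.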
